A study of Arabidopsis thaliana with 8 samples.

Results

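The Aux/IAA and ARF families of Arabidopsis thaliana, 52 of the 27444 nuclear protein-coding genes, were examined for cover by called regions of 5 chromatin marks and of histone H3. Members were nuclear protein-coding genes with a symbol or synonym of IAA or ARF followed by digits in the RefSeq annotation of TAIR10.1 and a product named as an auxin response protein. This gave 29 IAA and 23 ARF genes. The product of 40 of them, 17 IAA and all 23 ARF genes, used the words auxin-responsive, indole-3-acetic acid inducible or auxin response factor. The other 12 IAA genes (IAA3, IAA4, IAA6, IAA7, IAA8, IAA10, IAA12, IAA13, IAA16, IAA17, IAA26 and IAA27) had product names such as AUX/IAA transcriptional regulator or indoleacetic acid-induced protein and were kept, while 2 ADP-ribosylation factor genes that share the ARF symbol were left out. Genes are called here by their family numbers: RefSeq lists IAA3 as SHY2, IAA4 as ATAUX2-11, IAA17 as AXR3, IAA26 and IAA27 as PAP1 and PAP2, ARF3 as ETT, ARF5 as MP and ARF7 as NPH4.

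The chromatin came from non-hair cells of the root epidermis, in Col-0 seedlings aged 10 days. Nuclei carried a biotin tag from a transgene under the GLABRA2 (GL2) promoter, with the biotin ligase BirA expressed from the ACT2 promoter, and were purified on streptavidin beads from 1.25 cm root segments of the differentiated zone, without the root tip. Chromatin immunoprecipitation with sequencing (ChIP-seq) was done with antibodies to histone H3 methylated once at lysine 4 (H3K4me1), methylated 3 times at lysine 4 (H3K4me3), acetylated at lysine 27 (H3K27ac) or methylated 3 times at lysine 27 (H3K27me3), to the histone variant H2A.Z and to H3 itself. Each of the 6 targets had 1 library, all from the same transgenic line, and 2 input samples were not analysed here.

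With 1 library per target there was no test of any difference, and all counts describe these libraries. The files gave regions without heights or read counts, so sequencing depth is unknown and the amount of a mark was not measured. A gene counted as marked by a target if regions of that target covered 200 bp or more between its annotated start and end. Between 39.2% and 63.4% of a library's regions were of the smallest size found in it, a length between 179 bp (H3K27ac) and 254 bp (H3K4me1). This size was under 200 bp for H3K27ac, H2A.Z (183 bp) and H3K4me3 (189 bp). It was over 200 bp for H3 (211 bp), H3K27me3 (241 bp) and H3K4me1. A single smallest region could thus mark a gene for H3, H3K27me3 or H3K4me1 only, and counts that combine targets depend on this. To check the labelled cell type, H3K27ac marked 3 of 5 non-hair markers (GL2, WER and TTG1) and 1 of 4 root hair markers (COBL9). H3K27me3 marked 2 of the 5 (GL2 and MYB23) and all 4 of the hair markers. The shares of all protein-coding genes were 56.6% for H3K27ac and 41.9% for H3K27me3. The non-hair shares of 60% and 40% lay near these, so they do not check the cell type. The contrast at the hair markers rests on 4 genes. Across GL2, whose promoter drives the tag, 1311 bp lay under H3K27me3 regions, against 412 bp under those of H3K27ac.

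Auxin acts on transcription through both families. ARF proteins bind auxin response elements in DNA through a B3-type domain. Aux/IAA proteins bind ARFs and recruit TOPLESS corepressors, and in the presence of auxin they are bound by the F-box receptors TIR1 and AFB through a short degron in their domain II and destroyed, which frees the ARFs. Many Aux/IAA genes are themselves induced by auxin, which forms a feedback loop, whereas ARF genes are in the main not. H3K4me3 and H3K27ac are known from the starts of active genes, H3K4me1 from the bodies of transcribed genes, and H3K27me3 from genes held silent by Polycomb proteins.

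H3K27me3 was found on more of the IAA genes than of the ARF genes. It marked 16 of 29 IAA genes (55.2%) and 8 of 23 ARF genes (34.8%), where 41.9% of all nuclear protein-coding genes were marked. The difference was 20.4 percentage points with a 95% Newcombe interval of -6.51 to 43.3, which covers counting over genes only. It was 8.51 points without 8 ARF genes of chromosome 1 that had almost no regions, and 1.65 points with regions of at least 500 bp alone. Measured in bases of whole genes, H3K27me3 lay on 16.2% of IAA sequence and 4.25% of ARF sequence, against 10.4% over all protein-coding genes. ARF genes were the longer ones (median 3567 bp, against 1740 bp for IAA genes). In the first 1000 bp of the genes H3K27me3 covered 23.7% of IAA bases and 9.4% of ARF bases, against 15.9% over all protein-coding genes. H2A.Z had the same direction, with 13 of 29 IAA genes (44.8%) and 5 of 23 ARF genes (21.7%) marked, beside 38.2% of all genes. The H2A.Z difference was 23.1 points (-2.91 to 44.5). It was 11.5 points without the 8 ARF genes and -0.9 points with regions of at least 500 bp alone.

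H3K4me1 and H3K4me3 were found on a larger share of ARF genes. H3K4me1 marked 12 of 29 IAA genes (41.4%) and 15 of 23 ARF genes (65.2%), with 52.1% of all genes, a difference of -23.8 points (-46.4 to 3.24). H3K4me3 marked 10 IAA genes (34.5%) and 12 ARF genes (52.2%), where 25.7% of all genes were marked, with a difference of -17.7 points (-41.3 to 8.75). With any covered base the H3K4me3 shares were 41.4% of IAA and 56.5% of ARF genes, beside 40.1% of all genes. The IAA share then lay near that of all genes. These 4 intervals, for H3K27me3, H2A.Z, H3K4me1 and H3K4me3, all include 0. Per base of whole genes the H3K4me3 order was the other way, with 9.40% of IAA sequence and 6.66% of ARF sequence covered. In the first 1000 bp of the genes it was not, with 14.1% of IAA bases and 21.7% of ARF bases under H3K4me3. For H3K4me1 the order of the families depended on where it was counted: in the first 1000 bp after the start, 5 IAA and 3 ARF genes were marked, with 23.1% of all genes, and 8.52% of IAA bases and 3.59% of ARF bases were covered. H3K27ac marked 17 IAA genes (58.6%) and 13 ARF genes (56.5%), with 56.6% of all genes, and its difference of 2.10 points (-23.2 to 27.4) changed sign when regions of the smallest size were left out (-1.35 points). H3 marked 15 IAA genes (51.7%) and 13 ARF genes (56.5%), with 42.6% of all genes, and the difference was -4.80 points (-29.6 to 21.2).

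**Figure D1:**
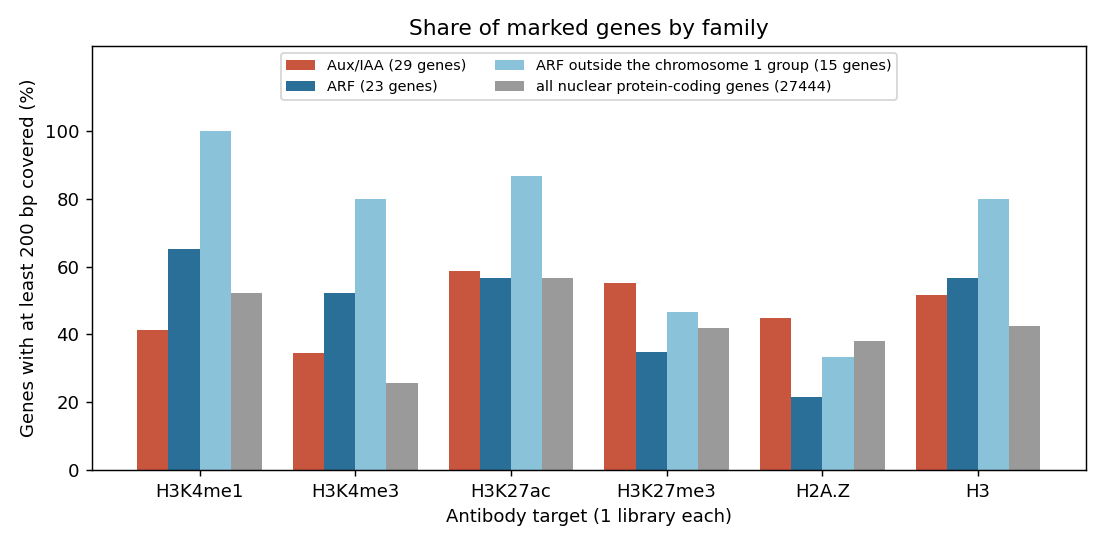
Share of genes with at least 200 bp under called regions (vertical axis, percent) for each of the 6 targets, for the 29 Aux/IAA genes, the 23 ARF genes, the 15 ARF genes outside the chromosome 1 group and all 27444 protein-coding genes, with 1 library per target and no error bars. The Aux/IAA bar is the highest for H3K27me3 (55.2%) and H2A.Z (44.8%), and the 15 ARF genes reach 100% for H3K4me1.

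The choice of names matters for the IAA side. Among the 17 IAA genes with the literal product wording, H3K27me3 marked 11 (64.7%), H3K27ac 7 (41.2%) and H3K4me3 3 (17.6%). The order of the families for H3K27ac is then the reverse, with 41.2% of IAA and 56.5% of ARF genes. The 12 IAA genes with other wording therefore hold 10 of the 17 genes with H3K27ac.

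The calls were used to sort the IAA genes into 3 main sets, as can be done with any list of genes. In the first set, 6 of the 29 (IAA5, IAA6, IAA15, IAA19, IAA20 and IAA33) were marked by H3K27me3 and by none of H3K4me1, H3K4me3 and H3K27ac, as were 13.1% of all genes and 1 of 23 ARF genes (ARF13). In the second, 10 of the 29 IAA genes carried H3K27ac or H3K4me3 without H3K27me3, as did 7 of 23 ARF genes. The IAA share of this set lay near the 35.9% of all genes. In the third, 9 of the 29 IAA genes and 6 of 23 ARF genes carried H3K27me3 together with H3K27ac or H3K4me3, as did 23.5% of all genes. IAA31 and IAA32 had H3K4me1 but neither H3K27ac nor H3K4me3 at 200 bp, and IAA28 and IAA30 were marked by no target, as were 7 ARF genes and 12.2% of all genes.

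**Figure D2:**
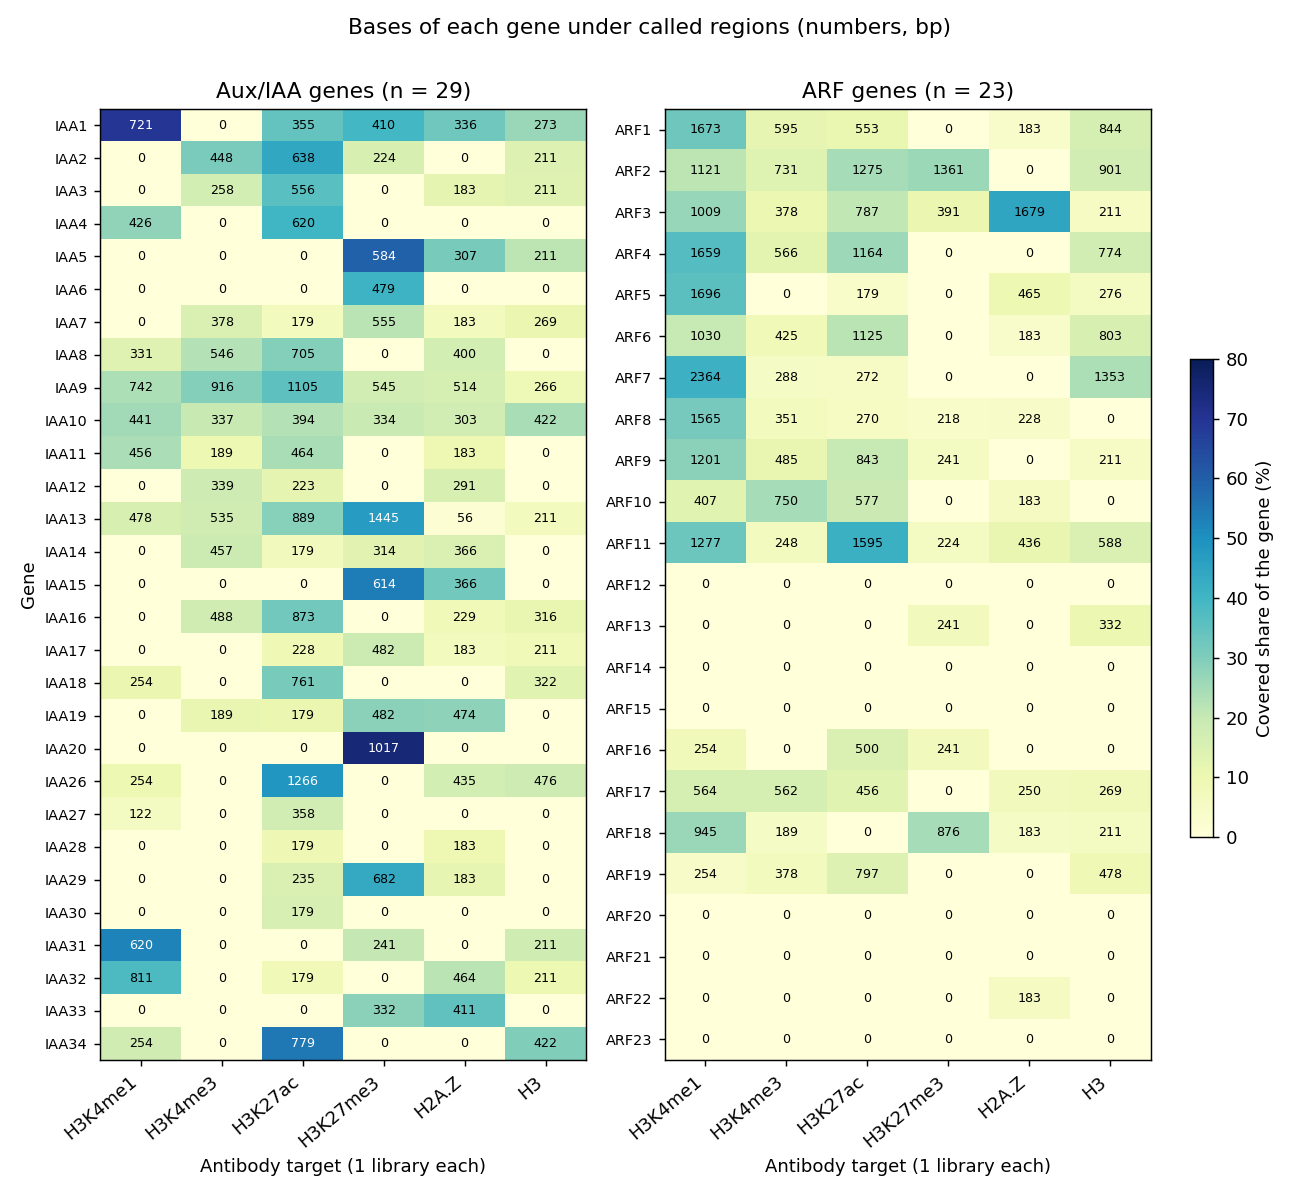
Bases of every member gene under regions of each target (numbers in the cells, bp; colour, share of the gene in percent), with Aux/IAA genes on the left and ARF genes on the right and 1 library per column. The darkest cells are H3K27me3 on IAA20 (1017 bp) and H3K4me1 on IAA1 (721 bp), and the rows from ARF12 to ARF15 and from ARF20 to ARF23 are nearly empty.

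Pairs of marks on the same gene also differed in number. H3K27ac and H3K4me3 together marked 8 IAA genes and 12 ARF genes, with 22.9% of all genes, and H3K27ac with H3K4me1 marked 10 IAA and 13 ARF genes, with 38.5% of all genes. No ARF gene had H3K27ac without H3K4me1, whereas 7 IAA genes did, as did 18.1% of all genes. H3K27ac and H3K27me3 together marked 7 IAA and 6 ARF genes (22.3% of all genes), H3K4me3 and H3K27me3 6 IAA and 5 ARF genes (11.2%), and H3K4me1 and H3K27me3 5 IAA and 7 ARF genes (21.1%). H3K27me3 without H3K27ac was found on 9 IAA genes and 2 ARF genes (19.6% of all genes), and H3K27ac without H3K27me3 on 10 IAA and 7 ARF genes (34.3%). Of the 9 IAA genes, IAA7, IAA14 and IAA19 each had a 179 bp region of H3K27ac, too short to be called. H2A.Z lay together with H3K27me3 on 8 IAA and 3 ARF genes (19.1% of all genes) and together with H3K27ac on 7 IAA and 4 ARF genes (23.2%).

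IAA20 had the largest covered share by H3K27me3 of all members, 74.9%. A single region of 1017 bp (chr2:19307769-19308785) began 55 bp after its start and took in 470 bp of coding exons, 92 bp of untranslated exon sequence and 455 bp of introns. A further H3K27me3 region of 641 bp lay upstream, from -714 to -74 bp relative to the start, and overlapped regions of H2A.Z (321 bp) and H3 (211 bp). No region of H3K4me1, H3K4me3, H3K27ac, H2A.Z or H3 lay on the gene itself. IAA20 encodes one of the Aux/IAA proteins that lack the degron and are long-lived.

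IAA5, IAA6 and IAA19 are known for rapid induction by auxin, and IAA15 is a relative of theirs. H3K27me3 covered 584 bp of IAA5, 479 bp of IAA6, 614 bp of IAA15 and 482 bp of IAA19. On IAA5 and IAA15 the regions reached across the start: a region of 575 bp ran from -532 to 42 bp relative to the IAA5 start, and one of 803 bp from -625 to 177 bp at IAA15. All H3K27ac, H3K4me3 and H3K4me1 values were 0 bp on IAA5, IAA6 and IAA15. IAA19, whose dominant mutants are called massugu2, differed in that single regions of the smallest size lay on it for H3K4me3 (189 bp) and H3K27ac (179 bp), both under the 200 bp needed for a call. Its H3K27me3 consisted of 2 regions of the smallest size, 241 bp each, with 291 and 183 bp regions of H2A.Z.

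The set with H3K27ac or H3K4me3 and no H3K27me3 was led by IAA26, IAA16, IAA34, IAA18 and IAA8. H3K27ac covered 1266 bp of IAA26 (48.7% of the gene), 873 bp of IAA16, 779 bp of IAA34, 761 bp of IAA18 and 705 bp of IAA8. H3K4me3 lay on only some of the same genes, with 488 bp on IAA16, 546 bp on IAA8 and 0 bp on IAA26, IAA18 and IAA34. The others of this set were IAA3 (556 bp of H3K27ac), IAA4 (620 bp), IAA11 (464 bp), IAA27 (358 bp) and IAA12 (223 bp). IAA3 and IAA12 are known from the dominant mutants short hypocotyl 2 and bodenlos.

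IAA9, IAA10 and IAA13 carried both kinds of mark over shared bases. On IAA9, whose tomato counterpart restrains fruit set and shapes the leaf, a single H3K27ac region of 1105 bp (chr5:26253685-26254789) contained the whole of an H3K4me3 region of 916 bp. H3K27me3 covered 545 bp of IAA9 in regions of 241 and 304 bp, and all 545 bp lay under H3K27ac and 528 bp under H3K4me3. IAA9 was marked by all 6 targets, as was IAA10. The IAA10 regions of H3K4me3, H3K27ac, H3K27me3 and H2A.Z and 1 of its 2 H3 regions also touched another gene, AT1G04105, and such regions cannot be assigned to 1 of both genes. Some regions on IAA3, IAA5, IAA13, IAA27, IAA32 and ARF3 likewise touched a neighbouring gene. On IAA13, H3K27me3 covered 1445 bp in 3 regions, the most bases of any member, of which 801 bp lay under H3K27ac and 300 bp under H3K4me3. One library cannot tell whether both marks sat on the same chromosomes or on those of different nuclei.

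Sister genes of the pairs IAA8 and IAA9, and IAA12 and IAA13, differed in H3K27me3. IAA8 and IAA12 had 0 bp, while IAA9 had 545 bp and IAA13 had 1445 bp. H3K4me3 lay on all 4 genes, with 546 bp on IAA8, 916 bp on IAA9, 339 bp on IAA12 and 535 bp on IAA13. IAA1 and IAA2 also differed: IAA1 had 721 bp of H3K4me1, 410 bp of H3K27me3 and no H3K4me3, and IAA2 had no H3K4me1, 224 bp of H3K27me3 and 448 bp of H3K4me3.

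Translation of the annotated coding sequences found the core of the degron in 23 IAA proteins and not in 6 (IAA20, IAA30, IAA31, IAA32, IAA33 and IAA34). H3K4me3 touched none of the 6 genes without the degron core (0 bp each), while it marked 10 of the 23 genes with it, beside 25.7% of all genes. H3K27ac marked 1 of the 6 (IAA34) and 16 of the 23, beside 56.6% of all genes. With any covered base the counts were 3 of the 6 and 20 of the 23, beside 68.3% of all genes. IAA30 and IAA32 each had 1 region of 179 bp, too short to be called. H3K27me3 marked 3 of the 6 (IAA20, IAA31 and IAA33) and 13 of the 23, beside 41.9%, and H3K4me1 marked 3 of the 6 (IAA31, IAA32 and IAA34) and 9 of the 23, beside 52.1%. The genes without the core were shorter, with a median of 1268.5 bp against 1907 bp, and in the first 1000 bp H3K27ac still marked 1 of 6 against 15 of 23. Among the 6, IAA32 had 811 bp of H3K4me1, of which 254 and 197 bp came from regions that also touched the gene AT2G01210 and 360 bp from a region on IAA32 alone. IAA33 had 332 bp of H3K27me3 with 411 bp of H2A.Z.

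IAA3, IAA7, IAA12, IAA14, IAA17, IAA18, IAA19 and IAA28 were counted as IAA genes known from dominant mutants with stable proteins. This chosen list of 8 need not be complete. Of the 8, 4 were marked by each of H3K27me3, H3K27ac and H3K4me3, beside 41.9%, 56.6% and 25.7% of all genes in that order. H3K4me1 marked 1 of them, IAA18, at the smallest size of 254 bp, beside 52.1% of all genes. IAA14, which blocks the founding divisions of lateral roots when its protein is stabilised (solitary root), had 457 bp of H3K4me3, 314 bp of H3K27me3, 366 bp of H2A.Z and a single 179 bp region of H3K27ac. IAA28, another regulator of lateral root founder cells, had only smallest regions, 179 bp of H3K27ac and 183 bp of H2A.Z. IAA7 (axr2) had 555 bp of H3K27me3, in part across its start, and 378 bp of H3K4me3. IAA17 (axr3) had 228 bp of H3K27ac beside 482 bp of H3K27me3.

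The members include 3 pairs of neighbouring genes with no protein-coding gene between them, in head-to-head orientation. The gaps were 6388 bp between IAA3 and IAA17, 12510 bp between IAA2 and IAA7 and 10732 bp between IAA14 and IAA1. H3K27me3 was found on IAA17 and not on IAA3, so neighbours did not always share their marks. In the other pairs it was found on both genes, with 224 bp on IAA2, 555 bp on IAA7, 314 bp on IAA14 and 410 bp on IAA1. No region reached from one member of a pair to the other.

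**Figure D3:**
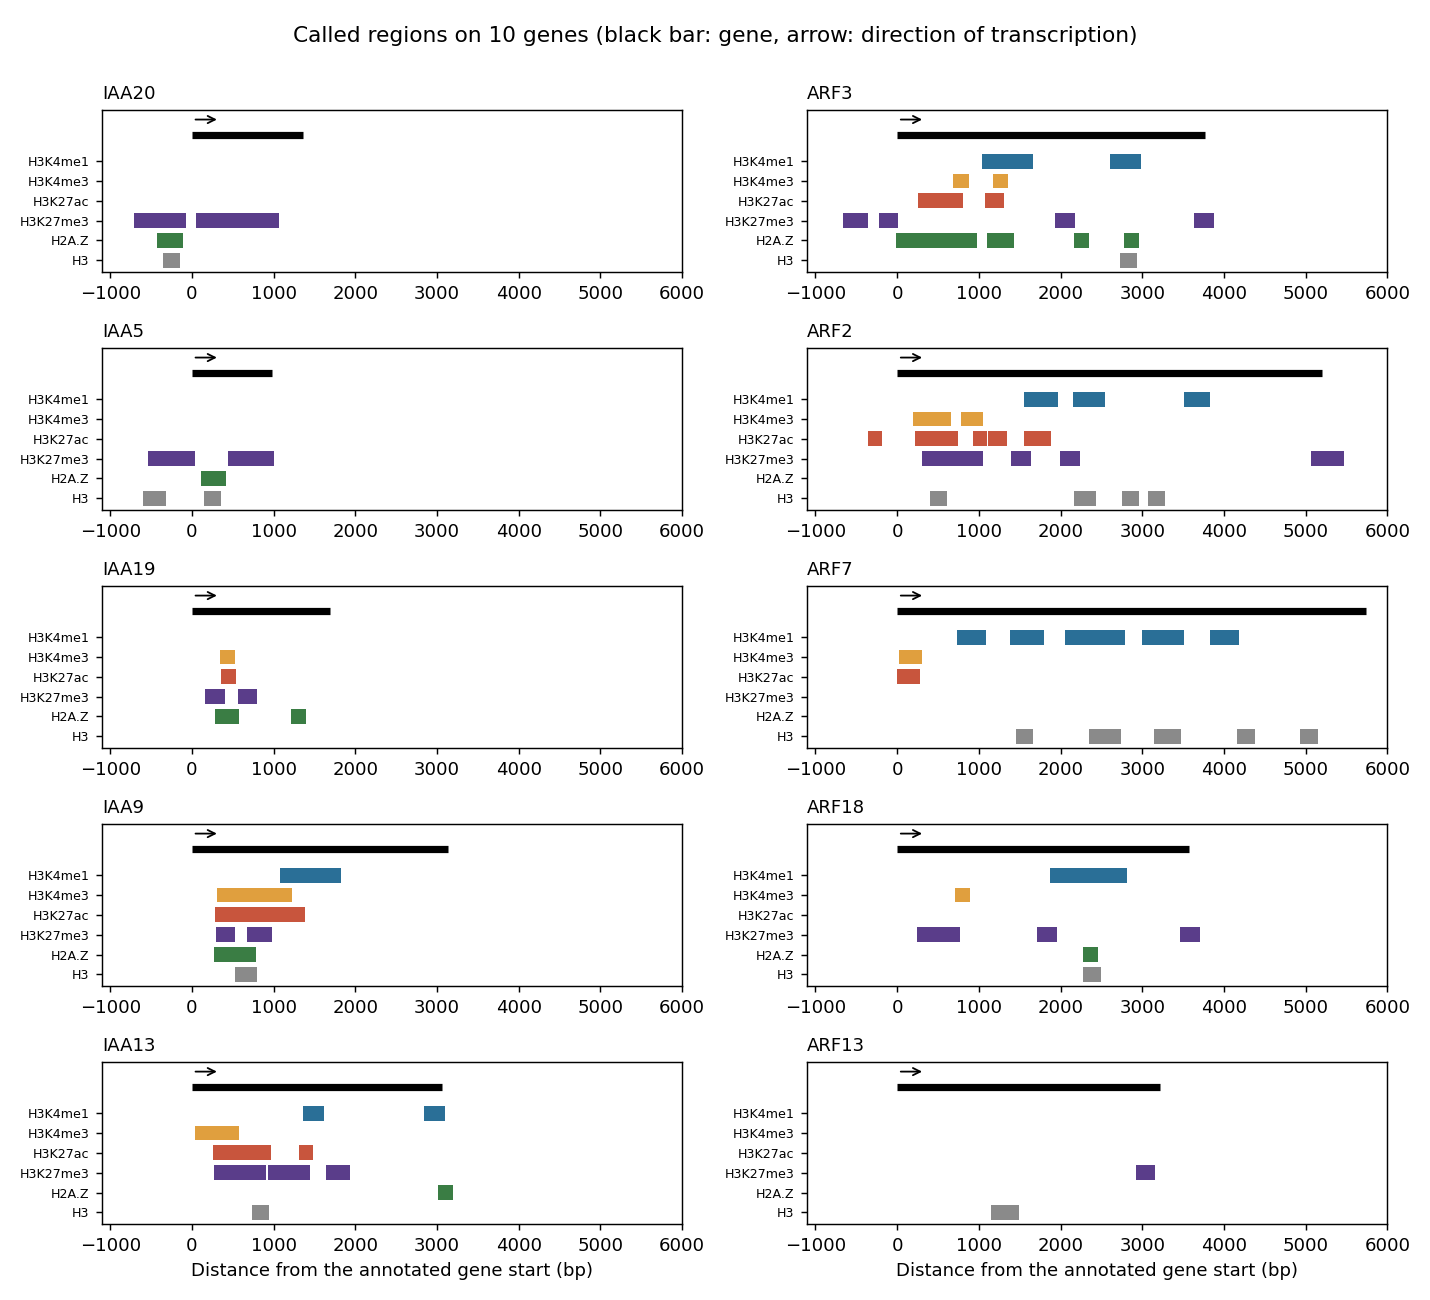
Called regions of the 6 targets (rows, coloured bars) that touch the gene or the 500 bp before it, by distance from the annotated start in bp, on 5 Aux/IAA genes (left) and 5 ARF genes (right). H3K27me3 lies on both sides of the IAA20 and IAA5 starts, H3K4me3 and H3K27ac end by 306 bp after the ARF7 start with H3K4me1 further along, and ARF13 has 1 region each of H3K27me3 and H3.

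The ARF family split into 8 genes with almost no regions and 15 genes with many. ARF12, ARF13, ARF14, ARF15, ARF20, ARF21, ARF22 and ARF23 form a group of close relatives on chromosome 1, on both sides of the centromere between 12.4 and 16.7 Mb, and most of them are known for activity in developing seeds. Of the 8, 6 had no region of any target, against 7.45% of all protein-coding genes, and none had H3K4me1, H3K4me3 or H3K27ac. ARF13 had 241 bp of H3K27me3 and 332 bp of H3, and ARF22 had 183 bp of H2A.Z. None of the other 15 ARF genes was without H3K4me1: 15 of 15 were marked, with 12 of 15 for H3K4me3, 13 of 15 for H3K27ac, 7 of 15 for H3K27me3, 5 of 15 for H2A.Z and 12 of 15 for H3. The shares of all genes were 52.1% for H3K4me1, 25.7% for H3K4me3, 56.6% for H3K27ac, 41.9% for H3K27me3, 38.2% for H2A.Z and 42.6% for H3, so that 7 of 15 (46.7%) and 5 of 15 (33.3%) lay near the background. H3 itself thus had regions on most of these genes and on 1 of the 8 in the chromosome 1 group, and its part in the cover by the marks was not tested.

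These 8 genes resemble one another in sequence, which can leave reads without a single place in the genome. Between 12% and 28.4% of the 50 bp stretches of 7 of the genes had another exact copy in the nuclear genome, while ARF13 had 0%. At least 71.6% of the stretches of each gene occurred once. The other members had 0% repeated stretches, except IAA13 with 0.265%. The sources used here give neither read lengths nor the treatment of reads with several matches, and the part of either in the missing regions was not tested. The surroundings of the 7 genes other than ARF23, which lies apart from them, were also poor in regions. Of 110 other protein-coding genes between ARF13 and ARF14 (chr1:12443547-13111700), 32 (29.1%) had no region of any target, 39 (35.5%) were marked by H3K27ac and 33 (30%) by H3K27me3, beside 7.45%, 56.6% and 41.9% of all genes.

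Since none of these 8 genes had H3K4me1, H3K4me3 or H3K27ac, leaving them out could only raise the ARF shares for these marks. H3K4me1 then marked 41.4% of IAA and 100% of ARF genes, H3K4me3 34.5% and 80%, and H3K27ac 58.6% and 86.7%. For H3K27ac this reversed the order of the families. The rise was not limited to these marks, as H3 then marked 51.7% of IAA and 80% of ARF genes. For H3K27me3 the shares were 55.2% of IAA genes and 46.7% of ARF genes. The share of bases under H3K27me3 was 16.2% in IAA genes and 5.37% in these 15 ARF genes. In the first 1000 bp of the genes it was 23.7% and 14.4% in that order, against 15.9% over all protein-coding genes.

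The 5 activating ARFs (ARF5, ARF6, ARF7, ARF8 and ARF19), whose proteins have a glutamine-rich middle region, all carried H3K4me1. Glutamine made up 6.98% of ARF5, 10.4% of ARF6, 15.3% of ARF7, 8.75% of ARF8 and 12.5% of ARF19, against 2.24% to 5.98% of the other ARF proteins outside the chromosome 1 group. H3K4me1 covered 2364 bp of ARF7 in 5 regions, the most of any member and target, 1696 bp of ARF5, 1565 bp of ARF8 and 1030 bp of ARF6, but only 1 region of the smallest size, 254 bp, of ARF19. H3K4me3 and H3K27ac marked 4 of the 5, all but ARF5. H3K27me3 was found on ARF8 alone, as 218 bp at its start.

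ARF7 and ARF19 act together in lateral root formation. On ARF7, H3K4me3 (288 bp) and H3K27ac (272 bp) lay within 306 bp of the start, and 5 regions of H3K4me1 followed between 735 and 4182 bp. ARF7 also had the most H3 of all members, 1353 bp, in 5 regions, and H3 regions overlapped its H3K4me1 regions in part. ARF19 had 797 bp of H3K27ac, more than ARF7, with 378 bp of H3K4me3 and 478 bp of H3. ARF5 (MONOPTEROS), which sets up the embryonic root and vascular tissue, had no H3K4me3, a single 179 bp region of H3K27ac far from the start (3885 to 4063 bp), and 465 bp of H2A.Z from 88 to 552 bp. A region of H3K27me3 of 502 bp lay upstream of ARF5, from -991 to -490 bp.

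A chosen set of 6 ARF genes under control of small RNAs was counted, which need not hold all such genes. It held ARF2, ARF3 and ARF4, whose transcripts are cut by trans-acting siRNAs, and ARF10, ARF16 and ARF17, targets of miR160. All 6 were marked by H3K27ac and H3K4me1, and 5 of the 6, all but ARF16, by H3K4me3. The shares of all genes were 56.6%, 52.1% and 25.7%, and the 15 ARF genes outside the chromosome 1 group, which include these 6, had 13, 15 and 12 genes marked by H3K27ac, H3K4me1 and H3K4me3. ARF2, a repressor of growth and senescence regulator, had 1361 bp of H3K27me3, the most in its family, beside 1275 bp of H3K27ac and 731 bp of H3K4me3. Of its H3K27me3 bases, 650 lay under H3K27ac and 623 under H3K4me3. ARF3 (ETTIN), which acts in organ polarity and the gynoecium, had 1679 bp of H2A.Z in 4 regions, 44.5% of the gene, and a region of 990 bp (chr2:14327999-14328988) spanned its start. H3K27me3 lay on ARF3 in regions of the smallest size, 391 bp in all, at the end, in the middle and at the start of the gene. ARF4, the close relative of ARF3, had no H3K27me3 and no H2A.Z, with 1164 bp of H3K27ac and 1659 bp of H3K4me1.

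ARF1, ARF9, ARF11 and ARF18 are repressing ARFs outside these sets. ARF11 had 1595 bp of H3K27ac in 4 regions, the most of any member, and was marked by all 6 targets. ARF18 had no H3K27ac, 189 bp of H3K4me3 and 876 bp of H3K27me3, led by a region of 529 bp from 246 to 774 bp after the start. H3K4me1 lay on both genes, with 1277 bp on ARF11 and 945 bp on ARF18. ARF1 had 1673 bp of H3K4me1, 595 bp of H3K4me3, 553 bp of H3K27ac and no H3K27me3. ARF9 had 843 bp of H3K27ac, 485 bp of H3K4me3 and 1 H3K27me3 region of the smallest size, 241 bp.

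H3K27me3 regions of the smallest size made up different shares in the families. Of 12 regions with their midpoint in an ARF gene, 10 (83.3%) were of the smallest size, against 8 of 22 (36.4%) in IAA genes, while 46.9% of all H3K27me3 regions were of that size. Without regions of the smallest size, H3K27me3 marked 12 IAA genes and 2 ARF genes (ARF2 and ARF18), with 26% of all genes. Regions of at least 500 bp marked 3 IAA genes (IAA5, IAA13 and IAA20) and the same 2 ARF genes, with 11.7% of all genes.

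The counts under other ways of calling a gene show how much rests on short regions. When any covered base sufficed, the counts were 13 IAA and 15 ARF genes for H3K4me1 (53.4% of all genes), 12 and 13 for H3K4me3 (40.1%), 23 IAA and 14 ARF genes for H3K27ac (68.3%), 16 and 8 for H3K27me3 (45%), 20 and 10 for H2A.Z (56.2%) and 15 and 13 for H3 (45%). Members were thus touched by H2A.Z and H3K27ac regions too short to be called, 7 IAA and 5 ARF genes for H2A.Z and 6 IAA genes and 1 ARF gene for H3K27ac. Without regions of the smallest size, 8 IAA and 13 ARF genes were marked by H3K4me1 (39.2% of all genes), 9 and 10 by H3K4me3 (23.1%), 16 and 13 by H3K27ac (52.8%), 11 and 5 by H2A.Z (33.2%) and 6 and 10 by H3 (19.8%). With regions of at least 500 bp alone, 1 IAA gene (IAA9) and 11 ARF genes were marked by H3K4me1 (18.4% of all genes), 2 IAA genes and 1 ARF gene by H3K4me3 (4.14%), 7 and 4 by H3K27ac (14.6%), 1 and 1 by H2A.Z (4.46%), and no IAA gene and 1 ARF gene, ARF11, by H3 (0.987%). Under long regions H3K4me1 thus led among ARF genes and H3K27ac among IAA genes, and H3K4me1 also had the largest share of all genes. In the first 1000 bp, the other counts were 8 IAA and 10 ARF genes for H3K4me3 (22.9% of all genes), 16 and 13 for H3K27ac (49.8%), 14 and 6 for H3K27me3 (34.2%), 11 and 5 for H2A.Z (29.2%) and 10 and 3 for H3 (19.6%).

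In relation to gene length, H3K27ac regions lay further along IAA genes than along ARF genes. Midpoints were measured from the annotated start. The median midpoint of H3K27ac regions lay 883 bp from the start in IAA genes (34 regions) and 972 bp in ARF genes (33 regions), which is 41.9% and 19.5% of the way along the gene. In the first 250 bp after the start H3K27ac covered 6.92% of bases in IAA genes and 30.6% in the 15 ARF genes outside the chromosome 1 group, against 24.6% in all protein-coding genes. H3K4me3 covered 7.97% of IAA bases and 29.6% of ARF bases there, against 9.83% in all genes. H3K4me1 was absent from the first 500 bp of all 23 ARF genes and from the 500 bp before their starts, and reached its highest value in the 15 ARF genes, 54.4%, from 1500 to 1750 bp. Its regions in ARF genes had a median midpoint at 2348 bp, and 29 of 37 lay mostly in coding exons. H3 regions in ARF genes were placed much the same, with a median midpoint at 2385 bp and 21 of 27 mostly in coding exons, and 53.9% of ARF gene sequence was coding.

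Upstream of the start the families differed more in bases under H3K27me3 than in genes touched by it. In the 500 bp before the start, 9 of 29 IAA genes and 4 of 23 ARF genes had at least 1 bp of H3K27me3, with 20.1% of all genes. All 4 of these ARF genes were among the 15 outside the chromosome 1 group. H2A.Z reached into the same stretch of 4 IAA genes and 1 ARF gene (19.3% of all genes), H3K4me1 of 1 IAA gene and no ARF gene (5.95%), and H3 of 2 IAA genes and no ARF gene (7.02%). In the last 250 bp before the start H3K27me3 covered 19.4% of IAA bases, against 7.15% in the 15 ARF genes and 9.46% in all genes. H3K27ac touched 4 IAA and 3 ARF genes in the 500 bp, with 23.2% of all genes, and H3K4me3 touched 1 IAA gene and no ARF gene, with 8.67% of all genes.

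**Figure D4:**
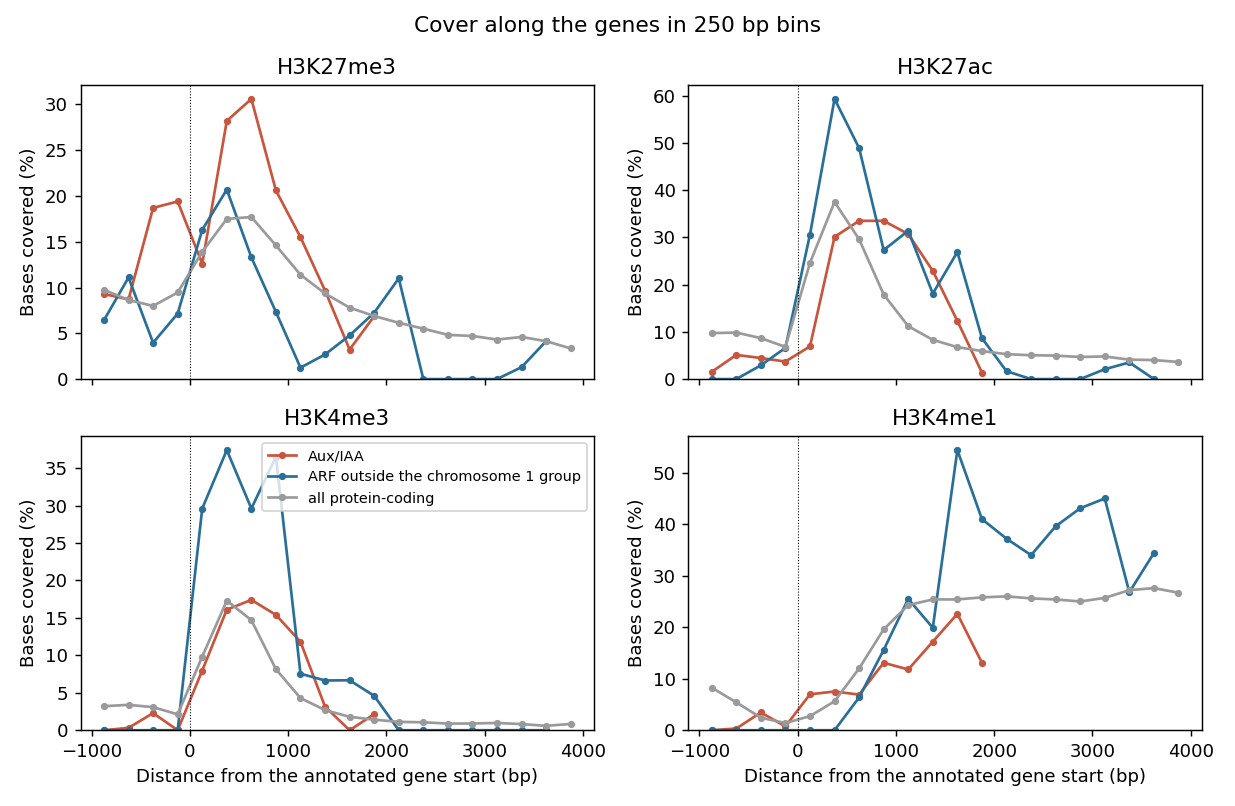
Share of bases under regions (vertical axis, percent) in 250 bp bins by distance from the annotated start (horizontal axis, bp) for Aux/IAA genes, the 15 ARF genes outside the chromosome 1 group and all protein-coding genes, for bins with at least 10 genes long enough to fill them. H3K27me3 on Aux/IAA genes peaks at 30.6% from 500 to 750 bp, and H3K4me1 on ARF genes at 54.4% from 1500 to 1750 bp.

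Promoters of the families differ in auxin response elements, the DNA sites of ARF proteins. The 2 forms TGTCTC and TGTCGG, which differ in their last letters, were searched on both strands from 250 bp before to 50 bp after each annotated start. TGTCTC was present in 12 of 29 IAA windows (41.4%), in 1 of 23 ARF windows (ARF3) and in 14.2% of windows of all protein-coding genes. TGTCGG was present in 6 IAA windows (20.7%) and 2 ARF windows (ARF7 and ARF19), and in 5.12% of all windows. Of the 6 IAA genes without the degron core, 5 had TGTCTC, and 7 of the 23 genes with the core. TGTCGG went the other way, with 0 of the 6 and 6 of the 23. A match is a stretch of letters and not a measured binding site.

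The 250 bp before the start are shown for IAA5, where H3K27me3 lies over 3 matches, for IAA20, where it ends just upstream of the match, for IAA19, which has 3 matches of TGTCTC and no region there, and for ARF3 and ARF7 as the ARF genes described above with a match of each form. Sequences are RefSeq TAIR10.1, read 5′ to 3′ along the gene, with matches in either direction in capitals. IAA5 (chr1:5366498-5366747, minus strand), IAA19 (chr3:5263751-5264000, plus), IAA20 (chr2:19307464-19307713, plus), ARF3 (chr2:14328979-14329228, minus) and ARF7 (chr5:7022180-7022429, minus) read as follows.
IAA5: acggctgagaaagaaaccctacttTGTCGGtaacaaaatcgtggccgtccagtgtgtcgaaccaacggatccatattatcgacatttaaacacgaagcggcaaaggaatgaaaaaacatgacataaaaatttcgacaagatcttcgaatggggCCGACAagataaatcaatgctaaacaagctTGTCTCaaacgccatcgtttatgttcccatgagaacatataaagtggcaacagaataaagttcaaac
IAA19: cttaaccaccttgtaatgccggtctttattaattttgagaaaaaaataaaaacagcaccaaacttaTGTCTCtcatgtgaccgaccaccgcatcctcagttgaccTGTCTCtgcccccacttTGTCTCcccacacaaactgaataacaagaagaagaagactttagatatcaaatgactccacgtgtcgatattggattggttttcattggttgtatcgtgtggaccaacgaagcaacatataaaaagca
IAA20: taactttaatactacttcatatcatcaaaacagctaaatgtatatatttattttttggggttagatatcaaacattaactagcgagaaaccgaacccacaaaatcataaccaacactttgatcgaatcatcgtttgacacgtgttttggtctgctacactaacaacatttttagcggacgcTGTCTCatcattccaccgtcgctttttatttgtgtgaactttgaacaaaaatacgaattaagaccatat
ARF3: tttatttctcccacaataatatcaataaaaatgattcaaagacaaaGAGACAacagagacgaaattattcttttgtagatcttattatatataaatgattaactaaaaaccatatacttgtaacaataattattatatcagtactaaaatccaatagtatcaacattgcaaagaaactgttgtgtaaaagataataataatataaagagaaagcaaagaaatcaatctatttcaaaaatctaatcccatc
ARF7: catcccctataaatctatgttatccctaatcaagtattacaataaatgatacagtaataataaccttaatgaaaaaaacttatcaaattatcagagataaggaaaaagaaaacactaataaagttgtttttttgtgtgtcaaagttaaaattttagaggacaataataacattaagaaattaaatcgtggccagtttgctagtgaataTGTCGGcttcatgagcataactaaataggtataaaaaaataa
H3K27me3 covered all 250 bases of the IAA5 stretch, 177 of the IAA20 stretch and 228 of the ARF3 stretch, and 0 bases of the IAA19 and ARF7 stretches. The 3 matches of IAA19 began at -184, -145 and -128 bp from the start, all in the direction of the gene. ARF3 had a second TGTCTC 3 bp after its start, outside the stretch shown. In the windows of 300 bp, at least 1 bp of H3K27me3 was present in 5 of 12 IAA promoters with TGTCTC (IAA5, IAA6, IAA15, IAA20 and IAA30) and in 3 of 17 without it. At IAA20 and IAA30, with 177 and 25 bp, the region ended upstream of the match. Over all protein-coding genes the shares were 18.6% with TGTCTC and 17.5% without it, and 17.7% of all windows held H3K27me3.

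Other genes of the auxin pathway were counted from fixed lists. H3K4me3 marked 5 of 6 receptor genes (TIR1 and AFB1 to AFB5), 3 of 5 TOPLESS corepressor genes and 4 of 5 genes of the ubiquitin ligase and its activation, beside 25.7% of all genes. H3K27me3 marked 3 of 6 receptor genes, led by AFB2 (774 bp) and AFB5 (581 bp), 2 of 5 corepressor genes, TPR4 (324 bp) and TPR2 (241 bp), and 3 of 5 ligase genes, led by CUL1 (804 bp), beside 41.9% of all genes. H2A.Z marked none of the 6 receptor genes, with 38.2% of all genes.

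Genes of auxin synthesis, auxin conjugation and lateral root formation made up the other lists, to be read beside the shares of all genes of 41.9% for H3K27me3, 38.2% for H2A.Z, 25.7% for H3K4me3 and 56.6% for H3K27ac. Of 14 synthesis genes (TAA1, TAR1, TAR2 and the YUC monooxygenases), 11 were marked by H3K27me3, led by YUC2 (1978 bp) and YUC6 (1699 bp), and 11 by H2A.Z, while 2 had H3K4me3 and 5 had H3K27ac, led by YUC8 (423 bp) and by TAA1 and TAR1 with 358 bp each. Of 8 GH3 genes, whose products join auxin to amino acids, 5 were marked by H3K27me3, led by GH3.3 (1846 bp) and GH3.2 (1214 bp), 7 by H2A.Z and 5 by H3K27ac, led by GH3.9 (682 bp) and GH3.17 (629 bp). All 3 LBD genes that act downstream of ARF7 and ARF19 in lateral root formation had H3K27me3, with 1437 bp on LBD16, 1412 bp on LBD18 and 834 bp on LBD29, and LBD16 also had 479 bp of H3K27ac. The highest H3K27ac values of the lists named first were 829 bp on AFB5 and 563 bp on TIR1 among receptors, 1061 bp on TPL and 775 bp on TPR1 among corepressors, and 532 bp on AXR1 and 524 bp on ECR1 among ligase genes.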

How the data were processed

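The authors deposited called regions (chromosome, start and end) for 6 ChIP-seq libraries, with no score, count or p-value. The submitters' processing notes name Bowtie2, SAMtools version 0.1.19, deepTools version 2.0, HOMER and genome build TAIR10; they give no caller settings, control library or depth. H3K27me3 had an input sample of its own. The labels do not say whether its chromatin was prepared apart from the rest, and if so, preparation and mark cannot be told apart. Mitochondrial regions (1 for H3K4me3, 2 for H3K27me3, 4 for H3) were left out.

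Genes came from RefSeq TAIR10.1, whose 5 nuclear chromosomes carry TAIR10 coordinates. Covered bases were counted per gene with Python 3.11.15 and numpy 2.4.6, and the counting was tested on simulated data. Exon classes and proteins used 1 transcript per gene (Biopython 1.88). Differences carry 95% Newcombe intervals over genes. Members and lists were chosen with earlier results of these data known. Every member could be named; full values went to the members with most cover per target and family and to the functional sets.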

Additional observations from a re-analysis of the deposited data

How the results depend on the processing

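Each count of marked genes and each difference (IAA minus ARF, percentage points) was recomputed with other calling rules, and, chosen after the annotation and data were seen, with the literal product wording and without the 8 ARF genes of chromosome 1; of 96 values, 63 lay within 1.5 times the reported count or, for a difference, kept its sign inside the reported interval, 25 moved further and 8 changed sign. With regions of at least 500 bp alone, IAA counts were 1 for H3K4me1, 2 for H3K4me3, 7 for H3K27ac, 3 for H3K27me3, 1 for H2A.Z and 0 for H3, ARF counts were 1 for H3K4me3, 4 for H3K27ac, 2 for H3K27me3, 1 for H2A.Z and 1 for H3, and the differences became 2.55 for H3K4me3 and -0.9 for H2A.Z. In the first 1000 bp, H3K4me1 marked 5 IAA and 3 ARF genes and H3 marked 3 ARF genes, with differences of 4.2 for H3K4me1, -1.35 for H3K27ac and 21.4 for H3. Without regions of the smallest size, 6 IAA genes had H3 and 2 ARF genes had H3K27me3, and the H3K27ac difference was -1.35. With any covered base, H2A.Z counts were 20 IAA and 10 ARF genes. With the literal wording, which has fewer IAA genes, counts were 7 for H3K4me1, 3 for H3K4me3, 7 for H3K27ac, 8 for H2A.Z and 8 for H3, and the H3K27ac difference was -15.3. Without the 8 ARF genes, differences were -58.6 for H3K4me1, -45.5 for H3K4me3, -28 for H3K27ac, -28.3 for H3, 8.51 for H3K27me3 and 11.5 for H2A.Z. The H3K27me3 difference kept its sign in all 6 alternatives (1.65 with regions of at least 500 bp to 32.7 without those of the smallest size). Beyond the fewer genes or bases that each rule leaves, the cause was not tested. No paired analysis was possible because each target had 1 library. The unknown depth limits what a missing region means.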
